A study of Danio rerio with 2 samples.

Results

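A set of 7 genes named for BEST4 cells were followed through a single-cell RNA atlas of the adult zebrafish intestine, namely otop2, best4, cftr, ca2, ca4b, tacr2 and rgs5a. They were taken by their symbols, and all 7 of the 7 symbols were found among the 25432 genes of the deposited tables. The question was how far each gene was restricted to cells that carry otop2. Intestines came from 6-month-old co-housed fish of the TL strain, in-crossed siblings that were either wild type (WT, nod2+/+) or homozygous for a frameshift deletion made with CRISPR in nod2 (nod2-/-), the gene for a cytosolic sensor of bacterial peptidoglycan. Each genotype was a single library that pooled whole intestines of 5 fish, 2 males and 3 females, dissociated and cleared of debris and dead cells on a density gradient. With 1 library per genotype, no difference between WT and nod2-/- has a replicate check, and none was tested.

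BEST4 cells are a rare type of absorptive epithelial cell known from the human and zebrafish intestine, and mice lack them. They are recognised by the proton channel OTOP2 and the chloride channel bestrophin-4, and they are thought to sense luminal pH and to move protons, chloride and bicarbonate across the epithelium. Carbonic anhydrases supply such transport by interconverting carbon dioxide with bicarbonate and protons, and CFTR, the cyclic AMP-gated anion channel that is mutated in cystic fibrosis, carries chloride and bicarbonate into the lumen.

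Transcripts were counted as unique molecular identifiers (UMIs), each of which marks 1 captured RNA molecule, and levels are given as UMIs of a gene per 1000000 UMIs of a class (CPM). The WT library held 34052268 UMIs over 5891 cells, with a median of 3400 per cell, and the nod2-/- library held 22244173 UMIs over 5599 cells, with a median of 1940. The 2 libraries shared 10 cell barcodes. nod2 itself had 139 UMIs in WT and 75 in nod2-/-, which does not check the genotype, because a frameshift leaves the counted 3′ end of the transcript in place. Intervals in brackets are exact 95% intervals, and they cover counting error only.

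Cells were grouped into 28 clusters, with the 7 genes kept out of the genes that shaped the clusters. The cluster with the highest otop2 level was taken as the BEST4-like class, so the level of otop2 chose it. It held 316 WT and 260 nod2-/- cells, with medians of 2357.5 and 1573.5 UMIs per cell. Of 8 measured BEST4 markers, among them otop2, best4 and cftr, 7 were at least 2-fold above other cells in both libraries, and the other, BX855618.1, had no UMI in the class. A further cluster, cluster 16, carried both BEST4 and enterocyte genes, with 80 WT and 63 nod2-/- cells. It was left unnamed and is described on its own, and "other cells" means all cells outside both clusters.

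Ion channels came first. otop2 was counted 1792 times in the WT BEST4-like class, or 2344 CPM [2237, 2455], and 958 times in the nod2-/- class, or 2067 CPM [1938, 2202]. Other cells held 29.1 CPM in WT and 19.4 CPM in nod2-/-. The class therefore stood 80.5-fold [74.4, 87.2] above other cells in WT and 107-fold [95.02, 120] in nod2-/-, which describes the choice of the class.

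best4, the gene for the calcium-activated chloride channel bestrophin-4, was scarce and had the highest fold of the 7, though in WT its interval overlapped that of tacr2. It had 184 UMIs in the WT class, or 241 CPM [207, 278], against 1.79 CPM in other cells, and 130 UMIs in the nod2-/- class, or 280.5 CPM [234, 333], against 0.944 CPM. These are folds of 134 [99.6, 184] in WT and 297 [185, 502] in nod2-/-. The nod2-/- fold was the highest of the 14860 genes with at least 20 UMIs in that library, and the WT fold was number 6 of 15846.

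cftr reached 2034 CPM [1934, 2138] in the WT class and 3014 CPM [2858, 3176] in the nod2-/- class. In other cells it stood at 24.01 CPM (WT) and 31.8 CPM (nod2-/-), which gave folds of 84.7 [77.7, 92.4] and 94.7 [86.3, 104]. Part of the remaining cftr sat in a small group of cells without otop2, cluster 21, which is described further on.

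The 2 carbonic anhydrases were also abundant, and in nod2-/- cftr stood between them. ca2, the gene for a cytosolic carbonic anhydrase, reached 3024 CPM [2902, 3150] in the WT class and 3603 CPM [3432, 3780] in the nod2-/- class, 80.7-fold and 100.4-fold above other cells. ca4b encodes a carbonic anhydrase of the membrane-anchored CA4 kind, and it reached 3484 CPM [3353, 3619] in WT and 2802 CPM [2652, 2959] in nod2-/-, 57.2-fold and 64.0-fold above other cells.

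The last members belong to G protein signalling. tacr2, the gene for a tachykinin receptor, had the lowest level of the 7, with 99 UMIs in the WT class, 129 CPM [105, 158], and 31 in the nod2-/- class, 66.9 CPM [45.4, 94.9]. Its folds over other cells were 89.3 [62.5, 129] and 74.6 [40.8, 140]. rgs5a encodes a regulator that shortens G protein signalling, and it was the least restricted, with 1176 CPM [1100, 1255] in the WT class against 106 CPM in other cells and 1502 CPM [1392, 1617] in the nod2-/- class against 71.8 CPM. Its folds, 11.1 [10.3, 11.9] and 20.9 [19.1, 22.9], were well under those of the other 6 genes.

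All 7 genes stood at least 8-fold above other cells in both libraries. Over all genes with at least 20 UMIs in a library, 2.18% reached 8-fold in WT and 1.84% in nod2-/-, while 21.4% and 21.8% reached 2-fold. For rgs5a in WT this hung on the settings, since its log2 fold of 3.47 (8-fold is 3) became 2.42 without integration of the libraries, 2.46 at a clustering resolution of 0.4 or with cluster 16 added, 2.82 with the cell filter of the methods and 2.89 as a mean over cells. The median gene stood at 1.08-fold in WT and 1.07-fold in nod2-/-. otop2, best4 and cftr were also among the markers by which the class was named, so their place in this count is not independent of it. All 7 genes were moreover chosen with earlier results of these data known. The count beside all genes is therefore a description and gives no independent support.

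**Figure D1:**
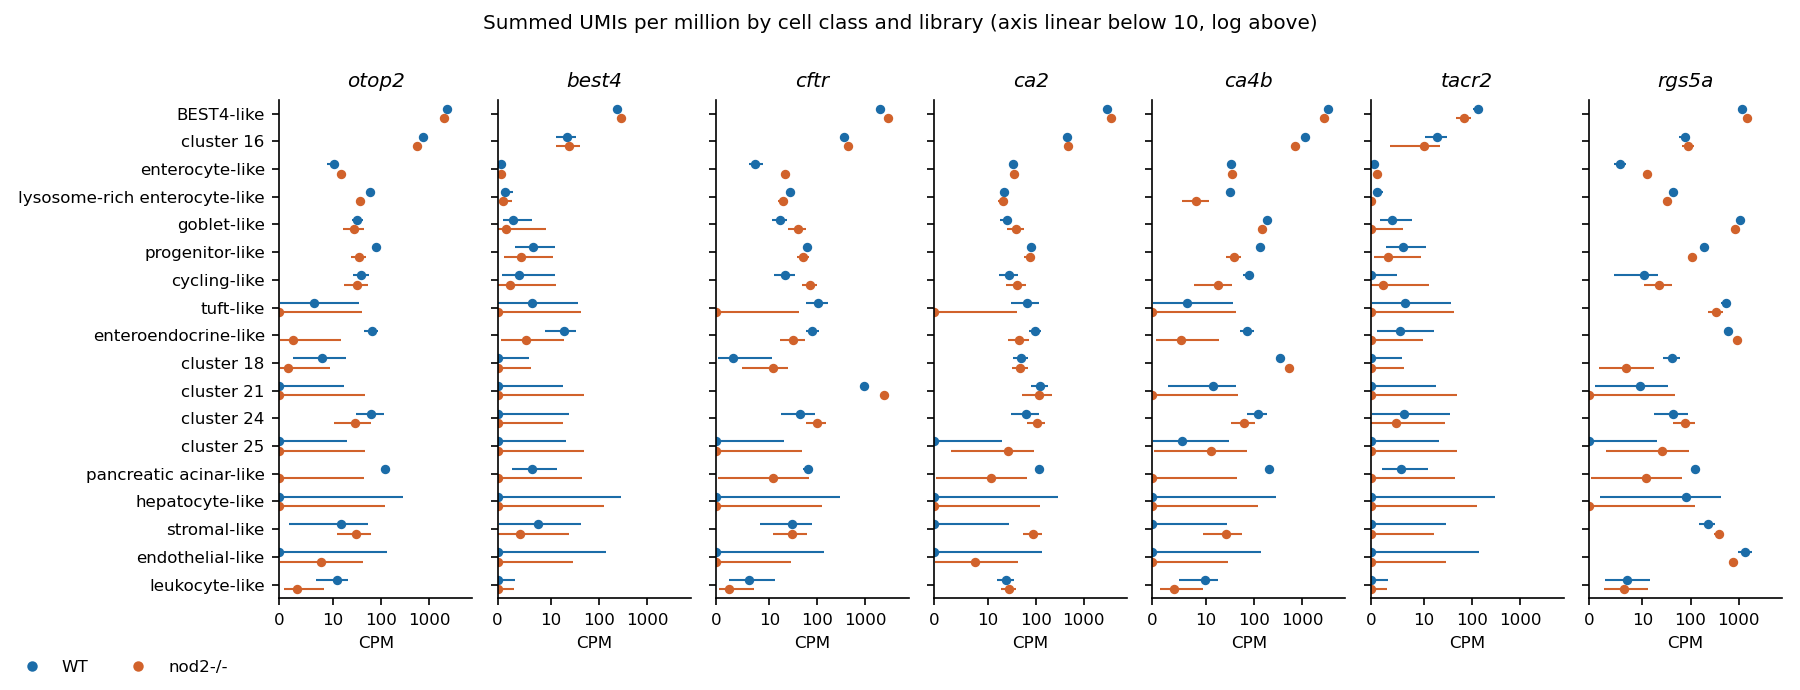
Level of each of the 7 genes (CPM, axis linear below 10 and logarithmic above) in each class of cells, with WT in blue and nod2-/- in orange and bars for exact 95% intervals from counting. Apart from rgs5a, the genes were highest in the BEST4-like class in both libraries, cftr had a further peak in cluster 21, and rgs5a was also high in goblet-like and enteroendocrine-like cells, while its endothelial-like points rest on 1 WT and 6 nod2-/- cells.

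The share of a gene's UMIs that fell in the class describes restriction from another side, with best4 again highest and rgs5a again lowest. The class held 70.5% of all best4 UMIs in WT and 79.3% in nod2-/-, 58.8% and 60.0% for cftr, 58.9% and 61.7% for ca2, and 61.1% and 55.4% for tacr2. It held 52.7% and 56.1% of otop2, and 47.1% and 49.1% of ca4b. For rgs5a the share was 20.4% in WT and 30.6% in nod2-/-, so most of its transcripts lay in other classes. Cluster 16 held 19.6% and 20% of otop2 and 18.1% and 15.8% of ca4b, but 7.28% and 8.54% of best4 and 1.52% and 2.38% of rgs5a.

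Single cells of the class differed in how many members they showed. ca2 was detected in 93.4% of WT and 94.6% of nod2-/- cells, cftr in 91.8% and 94.6%, otop2 in 77.2% and 76.2%, and ca4b in 75% and 66.2%. rgs5a was detected in 51.3% and 53.1%, best4 in 40.8% and 38.5%, and tacr2 in 23.7% and 10.4%. A median of 5 members per cell was detected in WT and 4 in nod2-/-, and at least 4 were seen in 79.1% and 80.4% of cells.

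Leukocyte-like cells, which should lack most of these genes, gave the background. Their median depth was 1117 UMIs in WT and 914.5 in nod2-/-, and between 0.269% and 1.102% of them carried a UMI of otop2, cftr, ca4b or rgs5a. ca2 was detected in 1.96% and 1.89%, but unevenly, with 12.5% and 8.64% in cluster 14 against 0.546% and 0.612% in cluster 1, so that the whole class is no background for ca2. No leukocyte-like cell carried best4 or tacr2, and 0 of 817 WT cells allows a share of up to 0.450% and 0 of 1114 nod2-/- cells up to 0.331%. With every cell thinned to 1000 UMIs, which left out 49 WT and 63 nod2-/- cells of the BEST4-like class, detection there was 91.4% and 93.4% for ca2, 80.9% and 84.8% for cftr, 70.0% and 67.5% for otop2, and 71.5% and 66.5% for ca4b. It was 45.3% and 53.8% for rgs5a, 23.2% and 26.9% for best4, and 14.6% and 5.58% for tacr2. ca2 and cftr were again the most often detected.

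Across the whole intestine, a UMI of otop2 was found in 664 WT cells and 475 nod2-/- cells. cftr was detected in 60.1% of these cells in WT and 64.8% in nod2-/-, against 3.02% and 3.04% of cells without otop2. best4 was detected in 21.7% and 20.2% against 0.746% and 0.663%, and tacr2 in 15.96% and 8.21% against 0.383% and 0.234%. These 3 genes were thus rare in cells without otop2.

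ca2 was detected in 65.7% of WT and 68.2% of nod2-/- otop2-positive cells against 10.3% and 7.26% of the others, ca4b in 64.3% and 58.1% against 10.98% and 6.62%, and rgs5a in 35.4% and 36.8% against 12.7% and 8.26%. Otop2-positive cells were deeper than the others, with medians of 5198 against 3196 UMIs in WT and 3419 against 1835.5 in nod2-/-. At 1000 UMIs per cell the shares for ca4b became 72.6% and 65.8% against 4.34% and 3.13%, and those for ca2 67.3% and 71.8% against 4.50% and 4.34%. Read from the side of the other gene, 84.1% of WT cells with tacr2, 78.7% with best4 and 71.6% with cftr also had otop2, but only 44.8% of those with ca2, 42.7% with ca4b and 26.2% with rgs5a.

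**Figure D2:**
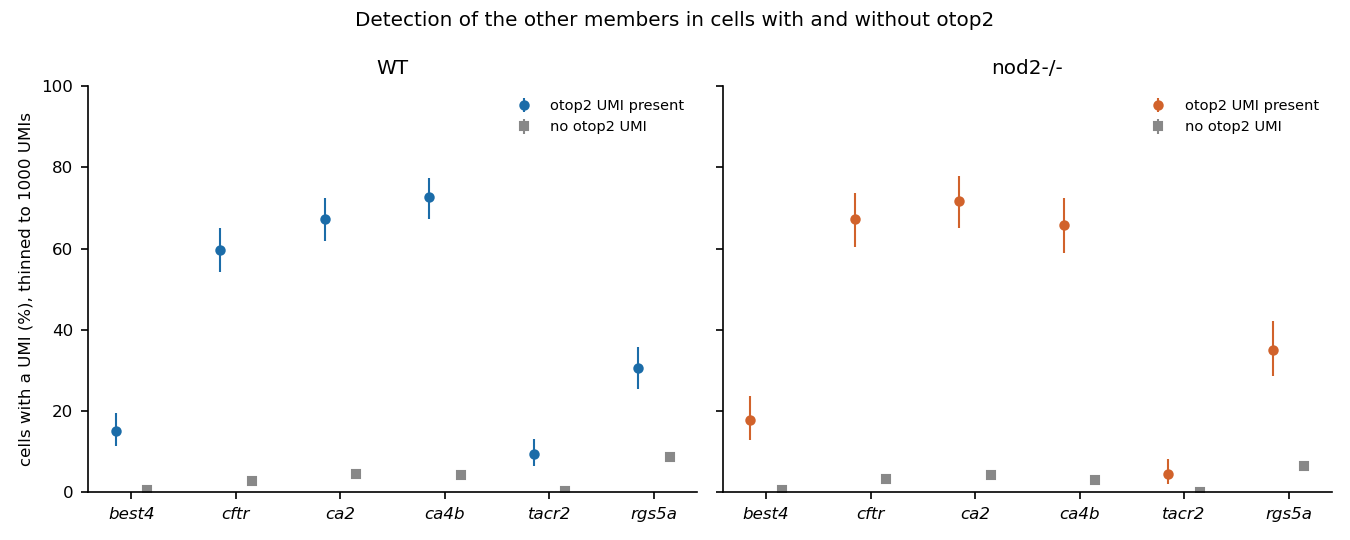
Share of cells (%) with a UMI of each of the other 6 genes, among cells with and without an otop2 UMI, after every cell was thinned to 1000 UMIs, for WT on the left and nod2-/- on the right, with exact 95% intervals. In both libraries the shares with otop2 lie above those without, by the widest gaps for ca4b, ca2 and cftr, and rgs5a has the highest share among cells without otop2 (8.71% in WT, 6.55% in nod2-/-).

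Cells with an otop2 UMI were not all BEST4-like. In WT, 244 of the 664 (36.7%) were in the BEST4-like class, 77 (11.6%) in cluster 16, 180 (27.1%) among lysosome-rich enterocyte (LRE)-like cells, which take up luminal protein, and 82 (12.3%) among enterocyte-like cells. In nod2-/-, these shares were 41.7%, 12.2%, 22.7% and 17.1% of 475 cells. LRE-like and enterocyte-like cells together thus made up about as many otop2-positive cells as the BEST4-like class did.

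The LRE-like cells with otop2 carried little of it. Among them 58.3% in WT and 76.9% in nod2-/- had a single otop2 UMI, and 57.2% and 74.1% had no other member, against 0.410% and 0.505% of otop2-positive BEST4-like cells. Their median depth was 11986 UMIs in WT and 6630 in nod2-/-, against 5482 and 3087.5 for all LRE-like cells, and at 1000 UMIs per cell otop2 was detected in 5.32% and 3.5% of all LRE-like cells, down from 31.6% and 14.9%. Of the cells with at least 5 otop2 UMIs, 56.6% in WT and 62.8% in nod2-/- were BEST4-like, 22.5% and 24.8% belonged to cluster 16, and 3% and 0.69% were LRE-like.

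The ratios among the genes also differed between classes. Taking the member UMIs per otop2 UMI in the BEST4-like class as 1, the LRE-like ratio was 0.240 in WT and 0.209 in nod2-/- for best4, 0.294 and 0.330 for ca2, 0.523 and 0.365 for cftr, and 0.367 and 0.162 for ca4b. For tacr2 it was 0.335 in WT, from 6 UMIs, and nod2-/- LRE-like cells had none. LRE-like cells thus held fewer member transcripts per otop2 transcript than BEST4-like cells did, with the exception of rgs5a at 1.45 and 1.19. That exception came from cluster 8, with 1.33 and 1.42 rgs5a UMIs per otop2 UMI. Cluster 5, also LRE-like, held 0.487 and 0.622, against 0.502 and 0.727 in the BEST4-like class. ca4b was split as well, with 176 UMIs in cluster 5 and 1 in cluster 8 in WT, and 29 and 2 in nod2-/-. In enterocyte-like cells the ratio was 2.46 and 1.34 for ca2, 2.199 and 1.68 for ca4b, and 0.819 and 0.964 for cftr. How much free RNA or cell doublets contributed to these UMIs was not tested.

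**Figure D3:**
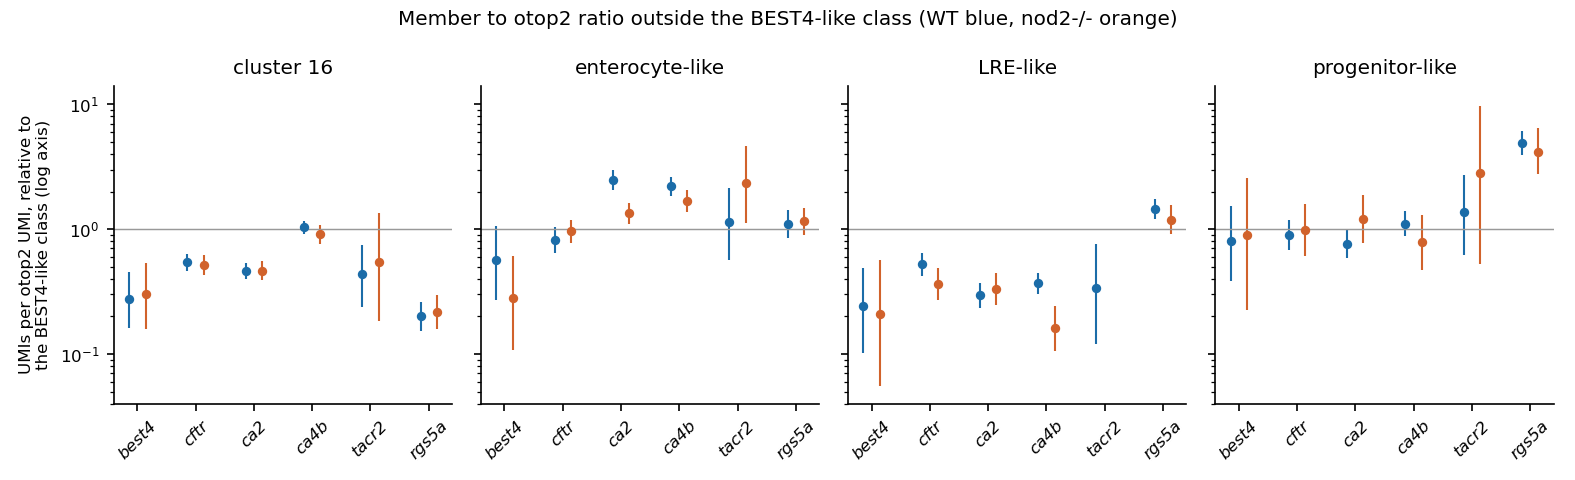
Ratio of each gene's UMIs to otop2 UMIs in cluster 16 and in enterocyte-like, LRE-like and progenitor-like cells (WT blue, nod2-/- orange), divided by the same ratio in the BEST4-like class of that library (log axis; 1 means the same mixture of transcripts), with 95% intervals from counting. LRE-like cells lie under 1 for best4, ca2, cftr and ca4b in both libraries, and no point is drawn for tacr2 in nod2-/- LRE-like cells, which had no tacr2 UMI.

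Outside cells with otop2, cftr had a class of its own. Cluster 21, with 41 WT and 37 nod2-/- cells led by zgc:193726, BX855618.1 and pbx3b, held 934 CPM [808, 1074] of cftr in WT and 2402 CPM [2070, 2772] in nod2-/-. cftr was detected in 80.5% and 78.4% of its cells, at median depths of 3128 and 1220 UMIs. otop2, best4 and tacr2 had no UMI there, and 3 UMIs would be 14.2 CPM in WT and 38.5 CPM in nod2-/-. By the exact limit, their detection in up to 8.60% of WT and 9.49% of nod2-/- cells remains possible.

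The cells of cluster 21 carried 3 of 4 genes of the pancreatic duct list above their level in other cells, a duct being another epithelium in which CFTR is known to work. onecut1, a transcription factor gene of liver and pancreas, stood at 332 CPM in WT and 308 CPM in nod2-/-, sox9b, a gene of duct and progenitor cells, at 175 and 283 CPM, and hnf1ba at 242 and 116 CPM. The last of the list, the keratin gene krt4, was lower, at 431.5 and 193 CPM against 1141 and 1107 CPM in other cells. All 7 pancreatic acinar markers were detected there too, and they summed to 882 CPM in WT, under the 1332 CPM of other cells, and to 1233 CPM in nod2-/-, where all 7 were above other cells with 61.3 CPM. Those other cells include cluster 21 itself and the pancreatic acinar-like class, with 264 cells in WT and 52 in nod2-/-. The 2 libraries thus do not give the same base for this comparison. The BEST4 marker BX855618.1 stood at 8616 and 12679 CPM in this cluster, while it was at 0 UMIs in the BEST4-like class, and 5 of 8 BEST4 markers were above other cells. Among these, meis1b stood at 1129 CPM in WT and 1130.4 CPM in nod2-/-, against 838 and 628 CPM in the BEST4-like class, and notch2 at 346 and 527 CPM, against 564 and 578 CPM. The 5 also include cftr itself and sctr, which had only 2 UMIs in each library. The marker pbx3a was not among them, with 1 UMI in WT and 0 in nod2-/-, against 425 and 397 in the BEST4-like class. clcn1b, which encodes a chloride channel of the CLC family and was picked after its values were seen, stood at 702 and 1490 CPM. The cluster was left unnamed.

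rgs5a was the broadest of the 7. Goblet-like cells, which secrete mucus, held 1047 CPM in WT and 858 CPM in nod2-/-, and with them 48.0% and 23.4% of all rgs5a UMIs. Enteroendocrine-like cells, which release gut hormones, held 599 and 924 CPM, tuft-like cells 548 and 337 CPM, and stromal-like cells 227 and 385 CPM. rgs5a was detected in 74.3% and 73.2% of goblet-like cells and in 68.9% and 61.7% of enteroendocrine-like cells. The endothelial-like level, 1377 CPM in WT and 780 CPM in nod2-/-, rested on very few cells, since 1 of 14 WT cells held all 37 UMIs and 6 of 61 nod2-/- cells held all 101. Per otop2 UMI, goblet-like cells held 63.8 times as many rgs5a UMIs as BEST4-like cells in WT and 43.0 times as many in nod2-/-.

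ca4b was also found at lesser levels elsewhere. Cluster 18, led by the keratin genes krt91 and krt15 and by cnfn, held 350 CPM in WT and 538 CPM in nod2-/-, with a UMI in 73.0% and 60.0% of its 37 and 70 cells, and goblet-like cells held 190 and 149 CPM. In pancreatic acinar-like cells ca4b was at 208 CPM and otop2 at 125 CPM in WT, and neither had a UMI in the 52 nod2-/- cells. That is 1.66 ca4b UMIs per otop2 UMI in WT, near the 1.49 of the BEST4-like class, whereas cluster 18 held 43.6. ca2 was at 123 and 116 CPM in cluster 21, and at 118 CPM in WT and 11.9 CPM in nod2-/- acinar-like cells. All of these levels were well under those of the BEST4-like class.

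The BEST4-like class was not uniform, and ca4b varied with otop2 within it. Its cells without an otop2 UMI, 72 in WT and 62 in nod2-/-, held 436 CPM of ca4b in WT and 809 CPM in nod2-/-, while those with otop2 held 4252 and 3244 CPM. cftr went the other way at full depth, with 2861 and 3677 CPM without otop2 against 1826 and 2867 CPM with it. So did rgs5a, with 1918 and 2154 CPM against 989 and 1357 CPM. Cells without otop2 were somewhat shallower, with medians of 1914 and 1367.5 UMIs against 2419 and 1700.5.

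At equal depth of 1000 UMIs per cell, ca4b was higher in each next bin of 0, 1 to 2 and 3 or more otop2 UMIs, from 1.02 to 3.95 and 5 UMIs per cell in WT and from 1.25 to 3 and 4.91 in nod2-/-. ca2 was higher by less, from 2.52 to 3.30 and 3.86 in WT and from 3.11 to 3.83 and 4.59 in nod2-/-. rgs5a was lower where otop2 was higher, from 1.54 to 1.30 and 0.818 in WT and from 1.98 to 1.83 and 1.34 in nod2-/-. The bins held 80, 77 and 110 cells in WT and 64, 63 and 70 in nod2-/-.

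cftr did not keep its direction, since it went from 2.75 to 2.19 and 1.97 UMIs per cell in WT and from 2.75 to 2.97 and 3.49 in nod2-/-. In nod2-/- the intervals of the first and last bins overlapped, at [2.36, 3.19] and [3.06, 3.95]. At full depth, as given above, cftr was higher without otop2 in both libraries. best4 showed no order over the bins, at 0.300, 0.221 and 0.282 UMIs per cell in WT and 0.328, 0.349 and 0.271 in nod2-/-. It had only 24, 17 and 31 UMIs in the WT bins and 21, 22 and 19 in those of nod2-/-. tacr2 had 11, 11 and 23 UMIs in WT and 4, 4 and 3 in nod2-/-. Counts this low could hide an order. Of the 42 ordered pairs of members, only ca4b by otop2 and otop2 by ca4b had detection intervals that lay apart in both libraries. For pairs with best4 or tacr2, overlap does not show a lack of association, since their counts were low. ca4b was detected in 89.8% of otop2-positive against 28.8% of otop2-negative cells of the class in WT and in 81.2% against 35.9% in nod2-/-.

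**Figure D4:**
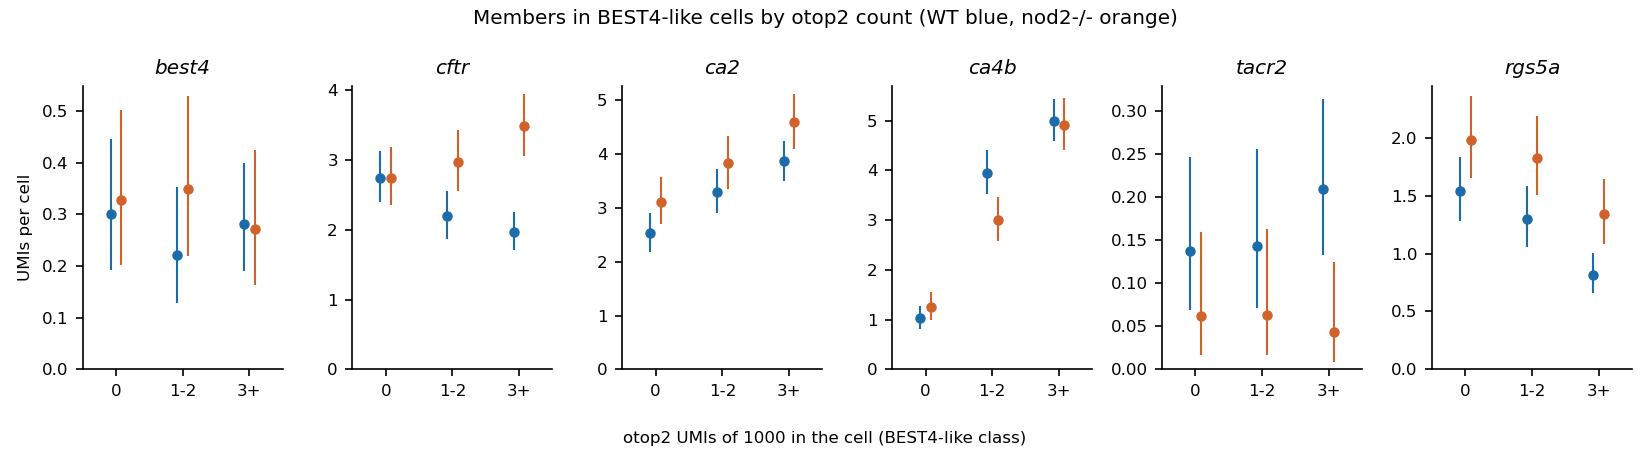
UMIs per cell of the other 6 genes in BEST4-like cells thinned to 1000 UMIs, by the number of otop2 UMIs in the cell (0, 1 to 2, 3 or more), for WT (blue) and nod2-/- (orange), with exact 95% intervals. ca4b climbs from 1.02 to 5 UMIs per cell in WT and from 1.25 to 4.91 in nod2-/-, and rgs5a falls in both. cftr falls in WT, while in nod2-/- it rises with overlapping intervals of the first and last bins.

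Some other genes were unequal between cells of the class with and without otop2, though not all of them beyond counting error in both libraries. Those named here are a selection of the listed genes and those most like otop2. chia.4, an acidic chitinase gene, had 327 UMIs with otop2 and 15 without it in WT, and 76 and 0 in nod2-/-. her6, a gene listed for BEST4 cells, had a log2 ratio of cells without to cells with otop2 of 0.31 [0.11, 0.50] in WT and 0.51 [0.23, 0.78] in nod2-/-. tacr3a, which encodes another tachykinin receptor, stood at 147 CPM with otop2 and 6.5 CPM without it in WT, and at 81.7 and 35.7 CPM in nod2-/-, where the log2 ratio of cells without to cells with otop2, -1.19 [-3.55, 0.49], held 0. The WT value without otop2 was 1 UMI of tacr3a, against 90 with it. slc12a2, the basolateral sodium, potassium and chloride importer of secretory epithelia, was at 37.7 CPM with otop2 and 117 CPM without it in WT, and at 76.4 and 179 CPM in nod2-/-. These slc12a2 levels came from 23 and 18 UMIs in WT and 29 and 15 in nod2-/-. ca9, the gene for a membrane carbonic anhydrase, was at 60.6 and 182 CPM in WT and at 65.9 and 119 CPM in nod2-/-, where the interval of the log2 ratio again held 0, at 0.85 [-0.37, 1.96]. The cells without otop2 held the transcription factor gene pbx3a, at 605 CPM in WT and 1095 CPM in nod2-/-.

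Cluster 16 had the deepest reading of otop2 outside the class. Its cells had medians of 9345 UMIs in WT and 8188 in nod2-/-, otop2 stood at 754 and 571 CPM, and it was detected in 96.2% and 92.1% of cells. Relative to the BEST4-like class, otop2 was at 0.321 in WT and 0.276 in nod2-/- and ca4b at 0.332 and 0.250, whereas cftr was at 0.174 and 0.143, ca2 at 0.148 and 0.129, best4 at 0.0892 and 0.0836, and rgs5a at 0.0644 and 0.0602. The members were thus not lowered by a single factor.

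Per otop2 UMI, cluster 16 held as much ca4b as the BEST4-like class in WT, at 1.03 [0.920, 1.16] of the class ratio, and 0.906 in nod2-/-. It held 0.541 and 0.517 of the class ratio for cftr, 0.461 and 0.466 for ca2, 0.277 and 0.303 for best4, and 0.200 and 0.218 for rgs5a. All 6 of the 6 enterocyte markers were detected in it and had sums of 21701 (WT) and 36191 (nod2-/-) CPM, against 4208 and 8006 CPM in the BEST4-like class. fabp2, which encodes an intestinal fatty acid-binding protein, stood at 7535 CPM in WT against 1989 CPM in the BEST4-like class and 10968 CPM in enterocyte-like cells. Its mean doublet score was 0.114 in WT and 0.106 in nod2-/-, the highest of all clusters, against 0.0385 and 0.0349 in the BEST4-like class, and the part of doublets in its levels was not tested.

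Between genotypes, none of the 7 genes differed by 2-fold in the BEST4-like class, against 9.78% of the 5601 genes with at least 20 UMIs there (3.7% higher and 6.09% lower in nod2-/-). cftr was higher in nod2-/- by 0.57 [0.46, 0.67] on the log2 scale, rgs5a by 0.35 [0.21, 0.50], ca2 by 0.25 [0.16, 0.34] and best4 by 0.22 [-0.11, 0.55]. otop2 was at -0.18 [-0.30, -0.07] and ca4b at -0.31 [-0.41, -0.22]. tacr2 had the largest ratio, at -0.95 [-1.58, -0.36], from 99 UMIs in WT and 31 in nod2-/-, and it passed 2-fold under several other settings, among them -1.13 with the cell filter of the methods and -1.04 without cells of high doublet score.

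The interval of best4 held 0, and those of the other 6 did not, though these intervals leave out the spread between cells and between fish. The median over the 7 genes was 0.22 on the log2 scale, against -0.02 over the 5601 genes. Enterocyte markers summed to 4208 CPM in the WT class and 8006 CPM in the nod2-/- class, and LRE markers to 947 and 2030 CPM. Their part in these ratios was not tested.

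The same ratio differed outside the class for some members. In other cells cftr was again higher in nod2-/-, at 0.41, and otop2, ca4b and tacr2 were again lower, at -0.59, -0.48 and -0.69. rgs5a turned to -0.56 and best4 to -0.92, and ca2 stood at -0.06. The ratio over other cells pools classes whose sizes differed between the libraries, such as goblet-like cells with 377 in WT and 138 in nod2-/-. Within classes rgs5a was at -0.29 in goblet-like, 0.63 [0.40, 0.85] in enteroendocrine-like and 1.14 [0.77, 1.51] in enterocyte-like cells. The enterocyte-like value came from 61 WT and 67 nod2-/- cells that carried rgs5a. Cluster 6, which is enterocyte-like, held 40 of the 105 UMIs in WT and 112 of 155 in nod2-/-. In cluster 21, which had cftr but no otop2, cftr was at 1.36, and in enteroendocrine-like cells at -1.32 [-2.38, -0.37]. The enteroendocrine-like value rested on few cells, with 43 UMIs in 8 WT cells and 12 UMIs in 2 nod2-/- cells. Of those 12 UMIs, 11 were in 1 cell. In enterocyte-like cells cftr was at 1.52, from 50 WT and 68 nod2-/- cells that carried it, and cluster 6 held 68 of 135 UMIs in WT and 180 of 260 in nod2-/-. That cluster made up 297 of 2758 enterocyte-like cells in WT and 462 of 2323 in nod2-/-, with cftr at 28.8 and 65.1 CPM in it, so the class ratio mixes its share and its level. In cluster 16, cftr was at 0.28, ca4b at -0.72 and otop2 at -0.40.

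**Figure D5:**
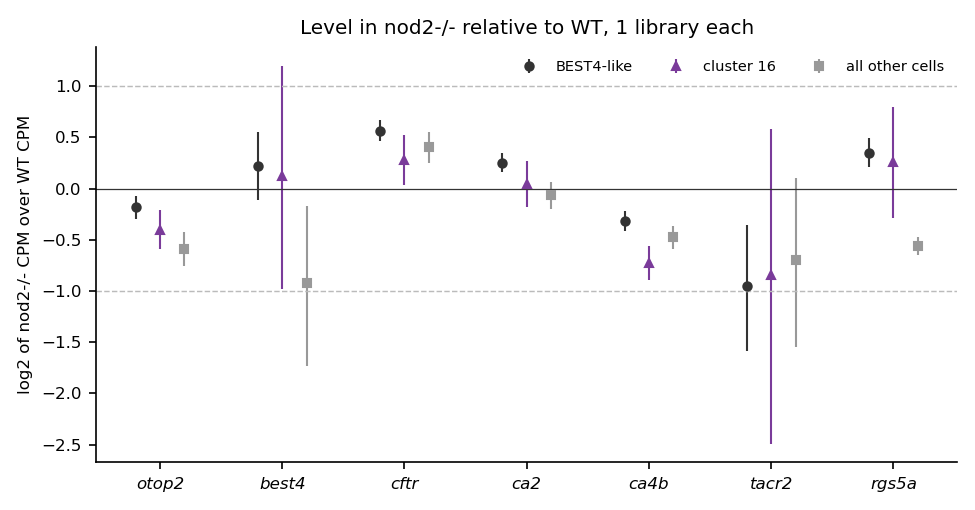
Log2 ratio of nod2-/- to WT level (CPM) of the 7 genes in the BEST4-like class, in cluster 16 and in all other cells, 1 library per genotype, with exact 95% intervals from counting. Within the class cftr (0.57) lies furthest above 0 and tacr2 (-0.95) furthest below, and rgs5a lies at 0.35 in the class and -0.56 in other cells, a pool of classes in which goblet-like cells were fewer in nod2-/-.

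BEST4-like cells made up 5.36% [4.80, 5.97] of the WT library and 4.64% [4.11, 5.23] of the nod2-/- library, a log2 ratio of -0.21 [-0.45, 0.03]. As a share of the named epithelial cells they were 6.88% and 6.46%, a log2 ratio of -0.09. Cells with an otop2 UMI were 11.3% and 8.48% of all cells, a log2 ratio of -0.41 [-0.58, -0.24], in libraries of unequal depth.

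Genes of the same pathways were counted from lists, without the 7 members, and against a background in which 12.1% of 14503 genes were at least 2-fold higher in the class in both libraries and 16.8% at least 2-fold lower. Of 6 other carbonic anhydrases with enough UMIs, 1 was higher, ca9 at 6.19-fold in WT and 7.96-fold in nod2-/-, and 1 was lower. No otopetrin or bestrophin other than otop2 and best4 reached 20 UMIs in the class. The list of chloride and bicarbonate transport also holds sodium pump subunits, potassium channels and aquaporins. Of its 31 genes with enough UMIs, 4 were higher and 12 lower, so more of the list was lower than higher.

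The 4 higher transport genes were slc12a2 (7.52-fold in WT and 9.22-fold in nod2-/-), slc12a7b, a potassium and chloride exporter gene (12.1-fold and 6.71-fold), and the aquaporin genes aqp3a (11.5-fold and 9.82-fold) and aqp8a.2 (3.24-fold and 3.28-fold). Among the 12 lower was slc4a4a, which encodes a sodium and bicarbonate cotransporter, at 0.26 and 0.32 of the level in other cells.

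The list of cyclic nucleotide signalling, which holds receptors, cyclases, kinases and phosphodiesterases, had 5 of 17 genes higher and 3 lower. sctr, the secretin receptor gene and a marker of the class, stood at 114-fold and 131-fold, adcy6a, an adenylyl cyclase gene, at 37.2-fold and 26.4-fold, vipr1a, a receptor gene for vasoactive intestinal peptide, at 16.01-fold and 14.5-fold, and gucy2c, the guanylyl cyclase receptor for guanylin, at 5.73-fold and 6.49-fold. Secretin, VIP and guanylin receptors are known to raise the cyclic nucleotides that open CFTR.

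Of 3 further tachykinin genes, 2 were lower and 1 was higher, the receptor gene tacr3a at 80.4-fold in WT and 111-fold in nod2-/-. Of 18 other RGS genes, 4 were higher and 5 lower, with rgs12a at 9.89-fold and 13.3-fold and rgs3a at 11.8-fold and 11.99-fold. Of 10 transcription factor and Notch pathway genes listed for BEST4 cells, 5 were higher and 2 lower, with pbx3a at 91.4-fold and 133-fold, meis1b at 45.3-fold and 35.2-fold, notch2 at 34.7-fold and 29.1-fold, and her6 at 11.3-fold and 11.4-fold. pbx3a, meis1b and notch2 are also among the markers by which the class was named, so their place in this count is not independent of it. Cluster 21 shares meis1b and notch2. The lists, too, were chosen with earlier results of these data known, so their counts are descriptions.

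Between genotypes, 3 of 16 transport genes with enough UMIs passed 2-fold in the class, beside 9.78% of all 5601 genes. aqp8a.1 was at 1.42 [0.90, 1.96] on the log2 scale. It is also a leading gene of cluster 6, which is enterocyte-like, and the part of enterocyte transcripts in this ratio was not tested. The intervals of the other two held 0, with slc12a7a at 1.21 [-0.07, 2.54] from 10 UMIs in WT and 14 in nod2-/-, and slc4a7, a bicarbonate cotransporter gene, at -1.17 [-2.62, 0.07] from 26 and 7. Of 7 cyclic nucleotide genes, vipr1b passed, at 2.77 [1.55, 4.21] from 7 and 29 UMIs. tacr3a, like tacr2, was lower in nod2-/-, at -0.70 [-1.31, -0.12], without reaching 2-fold.

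The genes whose pattern was most like otop2 were ranked by Pearson correlation of log2(CPM + 10) over 32 points, the classes in both libraries, among 12759 genes. The points share 2 libraries and their depth, so the coefficients are descriptions. ptger4c, a prostaglandin receptor gene, led with 0.911, followed by tmem178 (0.889), chia.4, an acidic chitinase gene (0.888), ush1ga (0.888) and pbx3a (0.884). Of the members, tacr2 was number 6 (0.876), best4 number 8 (0.861), ca2 number 19 (0.828) and ca4b number 21 (0.821), while cftr was number 155 (0.616) and rgs5a number 705 (0.428). The rest of the first 10 were slc20a1a (0.865), a phosphate transporter gene, pde9al (0.860) and tmem51a (0.858).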

How the data were processed

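The authors aligned the reads of both 10x 3′ gene expression libraries to GRCz11 with Cell Ranger 7.0.1, per the labels, and deposited a UMI count for each gene and cell without normalization. All 11490 deposited barcodes were used; the filter worded in the methods (200 to 2500 UMIs and at most 25% mitochondrial UMIs) leaves 5124. Counts were clustered with Seurat 5.3.0 in R 4.3.3 (2000 variable genes, canonical correlation integration, and 50 principal components and resolution 0.8 as in the methods), with the 7 genes and all listed genes kept out of the variable genes. A marker counted where it was at least 2-fold above the median cluster, with 10 CPM added to each, and in at least 5% of cells. Clusters were called X-like on at least 3 such markers of a list, and 5 of 28 stayed unnamed. This count alone did not fix the names. The 5 unnamed clusters also reached it for some list, and several named clusters reached it for more than 1 list. For example, the goblet-like cluster held 6 of 6 enterocyte markers as well. The pancreatic acinar-like cluster held 6 of 6 enterocyte, 4 of 6 goblet and 3 of 8 BEST4 markers. The BEST4-like cluster itself held 3 of 7 LRE markers. Taking the cluster with the highest otop2 level as BEST4-like, and keeping cluster 16 apart from it, was decided after the clusters were seen.

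UMIs were summed per class and library with Python 3.11.15, numpy 2.4.6 and pandas 2.3.3. Intervals (Poisson for levels, conditional binomial for ratios, Clopper-Pearson for shares) were computed with scipy 1.17.1 and checked on simulated counts. TMM factors came from edgeR 4.0.16, as an alternative scaling only. Scrublet in scanpy 1.11.5 called 0 doublets, so it did not work as a caller and only its scores were used. Where levels were compared with a count of 0, 3 UMIs were taken as the upper limit, and for shares of cells the exact limit was given. Text names were limited to the 7 members, listed genes with at least 20 UMIs in the class, the 10 genes most like otop2 (of those with at least 100 UMIs), and markers or leading genes of a cluster. Members and lists were chosen with earlier results of these data known. All 7 symbols matched 1 gene each.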

Additional observations from a re-analysis of the deposited data

How the results depend on the processing

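The median log2 fold of the 7 genes over other cells was 6.33 in WT and 6.57 in nod2-/-. It became 5.56 and 5.68 at resolution 0.4, 5.92 and 5.92 with 30 principal components, 5.50 and 5.71 without integration, and 5.96 and 5.88 with the members among the variable genes. It became 6.47 and 6.78 without cells of high doublet score, 6.45 and 6.88 as a mean over cells, and 5.56 and 5.61 with cluster 16 added (chosen after seeing the data). With the filter of the methods it was 7.25 in nod2-/-. Under that filter tacr2 had no UMI outside the class in nod2-/-, so its fold was not finite, and the median of 7.25 counts it among the higher folds. Members past 2-fold between genotypes went from 0 to 1, tacr2, at resolution 0.4, with that filter, without cells of high doublet score, and as a mean over cells. Without the minimum of 20 UMIs, 6360 of 15675 genes passed 2-fold, against 548 of 5601. The median share of otop2-positive cells with another member was 47.7% in WT and 47.5% in nod2-/-. It was 75.4% and 66.9% for best4-positive cells, and 62.8% in nod2-/- with at least 2 otop2 UMIs. The log2 ratio of BEST4-like shares ranged from -0.26 to -0.02, and it was -0.41 for all otop2-positive cells in place of the class. No genotype ratio of a member changed sign under any of the alternatives run. Of the summary values, 23 moved and 43 stayed near the value reported, and of the values of single genes 100 moved and 123 stayed. The folds of single genes over other cells moved most. That of otop2 moved in 7 of 10 settings in each library, and its WT log2 fold ranged from 5.57 to 6.47. That of ca2 moved in 7 (WT) and 8 (nod2-/-), and that of tacr2 in 3 and 4. The cause of these shifts was not tested. No paired analysis was possible because the labels give each genotype 1 library. For the same reason leaving out a replicate could not be run. Depth limits best4 and tacr2 most, with 31 tacr2 UMIs in the nod2-/- class.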
